A study of Mus musculus with 24 samples.

Results

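Among 1430 index-sorted mouse haematopoietic stem cells (HSCs), 869 carried a map number of 2, 3, 4 or 5 in the deposited sort record, and within these cells the brightest and the dimmest for a cyan fluorescent reporter (CFP) were set against each other. Within each of the 4 sort plates (numbered 2 to 5) the 20% of these cells with the highest CFP were called bright, the 20% with the lowest were called dim, and the other 60% intermediate. This gave 33, 47, 46 and 48 bright cells on plates 2 to 5, against the same numbers of dim cells, or 174 per side. The cells came from bone marrow of the mouse strain -60/DR5-TA-RA-CFP and had been sorted as LSK, CD150+, CD48-, the usual surface profile of mouse HSCs. All cells of both sides carry the reporter, and no age, sex or treatment is given. The labels name 8 single-cell batches, but neither deposited table ties a well to a batch or an animal. The plates were therefore taken as 4 technical replicates. Whether they share a pool of animals is not given, and no p-value below can be read as the spread between animals. Permutation p-values rest on the plate differences alone. Those from edgeR lean mostly on variance shared across genes, which in map 2 to 5 weighed as 316 degrees of freedom (median). The plates themselves gave 6, so a small edgeR p is not a measure of plate spread only. The question was what follows the reporter once the cycling map groups are left out.

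Retinoic acid is made from vitamin A by retinol and retinaldehyde dehydrogenases and is broken down by the Cyp26 enzymes. It binds nuclear receptors of the RAR family, which pair with RXR receptors on DNA elements built from a pair of direct repeats, and a gap of 5 bases gives the DR5 class. The strain is known as a retinoic acid reporter, so CFP is read as a trace of past or present signalling, and its protein can outlast the signal. HSCs are mostly out of cycle, and in bone marrow retinoic acid signalling has been tied to the maintenance of dormant HSCs.

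The strain's name refers to a DR5 element, and the same kind of element stands in the promoters of Rarb, a retinoic acid receptor gene, and Cyp26a1, which encodes a retinoic acid-degrading enzyme. Both are shown because they are the endogenous counterparts of the reporter's element. The capitals mark the motif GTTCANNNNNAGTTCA, searched on both strands of RefSeq promoter windows running from 250 bases before to 50 after each gene's start (GRCm38.p6), 5′ to 3′ on the gene's strand.
Rarb: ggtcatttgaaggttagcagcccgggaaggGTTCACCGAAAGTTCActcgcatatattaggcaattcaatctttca
Cyp26a1: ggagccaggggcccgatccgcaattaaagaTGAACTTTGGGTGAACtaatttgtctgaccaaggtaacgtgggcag
The Rarb stretch lies at chr14:16575483-16575558 on the minus strand, with the motif at bases -52 to -37 from the start. The Cyp26a1 stretch lies at chr19:37697746-37697821 on the plus strand, with the motif in reverse orientation at bases -32 to -17. The motif was in 11 of 32851 windows (0.0335%), and in 2 of the 26 windows found for the 35 genes of the retinoid list.

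The map number has no stated meaning, so the word low-cycling was checked against S phase and G2/M genes. In cells thinned to 1000 unique molecular identifiers (UMIs, 1 per captured RNA molecule), these genes took 0.627%, 0.672%, 0.582% and 0.73% of UMIs in map groups 2, 3, 4 and 5. They took 1.39%, 1.93% and 2.55% in groups 8, 9 and 10. Groups 1, 6 and 7 lay between 0.556% and 0.794%, so the 869 cells are not all of the low-cycling cells in the record. HSC markers were present in map 2 to 5, with 940 UMIs of Pdzk1ip1, 527 of Hlf, 182 of Mecom and 152 of Procr. Cd48, Cd3e, Cd79a and Cdh5, markers of other progenitors, T cells, B cells and endothelium, had 0 UMIs, and S100a8 of neutrophils had 1. Other members of these marker lists were detected. The lymphocyte list had 109 UMIs of Cd79b and 25 of Lck. Lyz1 (an entry shared with Lyz2) had 406 on the neutrophil and monocyte list, and Egfl7 had 191 on the endothelial list. Progenitor transcripts were present too, with 331 UMIs of Cd27, 152 of Cd34 and 34 of Flt3 on the multipotent progenitor list. On the myeloid progenitor list Prtn3 had 1107 UMIs. Of 21 mature lymphocyte genes 13 had 0 UMIs, as had 8 of 23 neutrophil and monocyte genes and 9 of 22 endothelial and stromal genes. Summed, the lymphocyte list took 0.00549% to 0.0234% of UMIs in bright cells and 0.00837% to 0.0184% in dim cells, and the neutrophil and monocyte list 0.0255% to 0.0696% in bright cells and 0.0162% to 0.0737% in dim cells. The endothelial and stromal list took 0.0498% to 0.0777% in bright cells and 0.0461% to 0.0696% in dim cells. Summed UMIs per plate ran between 47025 and 73317 on the bright side, against 36970 to 59704 on the dim side. Plate 2 stood apart: in map 2 to 5, 67 of 1703 tested genes were over 4-fold lower there than the mean of the other plates, and none was on plates 3, 4 or 5. Rpl26 had 898 counts per 1000000 UMIs of the tested genes (CPM) on plate 2, against 6204 to 7097 on the others. Plate entered every fit as a block, and results are also given without plate 2.

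The reporter differed between the sides by a modest step. Median CFP channel numbers were 679, 681, 685.5 and 683.5 in bright cells of plates 2 to 5, against 613, 607, 618 and 615.5 in dim cells. At the edges the cut was narrow. The lowest bright cell on plates 2 to 5 had channel 664, 669, 675 and 669, and the highest intermediate cell 663, 669, 673 and 669. The highest dim cell had 626, 623, 628 and 625, and the lowest intermediate cell 627, 623, 628 and 626. Equal channels at an edge were split by well order.

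More UMIs were captured from bright cells. The median was 1510.0, 1476, 1324 and 1336 UMIs per bright cell on plates 2 to 5, against 1119, 1248, 956 and 1024 per dim cell. Every bright median lay above every dim one. The mean of the plate medians was 1412 ± 95.1 UMIs in bright cells and 1087 ± 127 in dim cells (SD, n = 4 plates), a fold of 1.30 (log2 ratio 0.38 ± 0.10, higher in 4 of 4 plates). A two-sided exact permutation test that flipped the sign of each plate's difference gave p = 0.12, the smallest p that 4 plates allow. Bright cells had 881 ± 69.1 detected genes and dim cells 720 ± 79.9 (SD, n = 4 plates; log2 ratio 0.29, exact permutation p = 0.12). Over single cells, the rank correlation of CFP with UMIs was 0.179, 0.19, 0.205 and 0.284 on plates 2 to 5 (163 to 239 cells each). It is given as a description, since the cells of a plate are not separate replicates. In the other map groups the step was larger, with 2560 ± 428 UMIs in bright cells and 1265 ± 159 in dim cells (SD, n = 4 plates). The log2 ratio in map 2 to 5 minus that in the other groups was -0.63 ± 0.23 (SD, n = 4 plates), negative in 4 of 4 plates (exact permutation p = 0.12).

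Cycling genes, by contrast, barely separated the sides in map 2 to 5. S phase and G2/M genes took 0.533%, 0.651%, 0.733% and 0.811% of UMIs in bright cells of plates 2 to 5, against 0.633%, 0.55%, 0.715% and 0.544% in dim cells, all thinned to 1000 UMIs. Shallower cells had to be left out, which kept 134 of 174 bright and 98 of 174 dim cells (106 and 78 of 113 in the other groups). The sides overlapped, and plate 2 went the other way. The difference was 0.0715 ± 0.154 percentage points (SD, n = 4 plates; exact permutation p = 0.375), and it was 0.0787 ± 0.127 points over all cells without thinning and 0.0104 points between cells matched on UMIs. In the other map groups the shares were 2.20 ± 0.273% in bright cells and 1.05 ± 0.158% in dim cells (SD, n = 4 plates). The bright minus dim difference in map 2 to 5 lay 1.075 ± 0.187 points below that of the other groups, in 4 of 4 plates (exact permutation p = 0.12). The mean share over all cells of map 2 to 5 was only 0.649%, which left little room for a gap as large as in the other groups. In the other groups 94.7% of bright cells and 59.3% of dim cells belonged to map 8 to 10. This comparison therefore cannot separate the reporter from the choice of map groups.

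**Figure D1:**
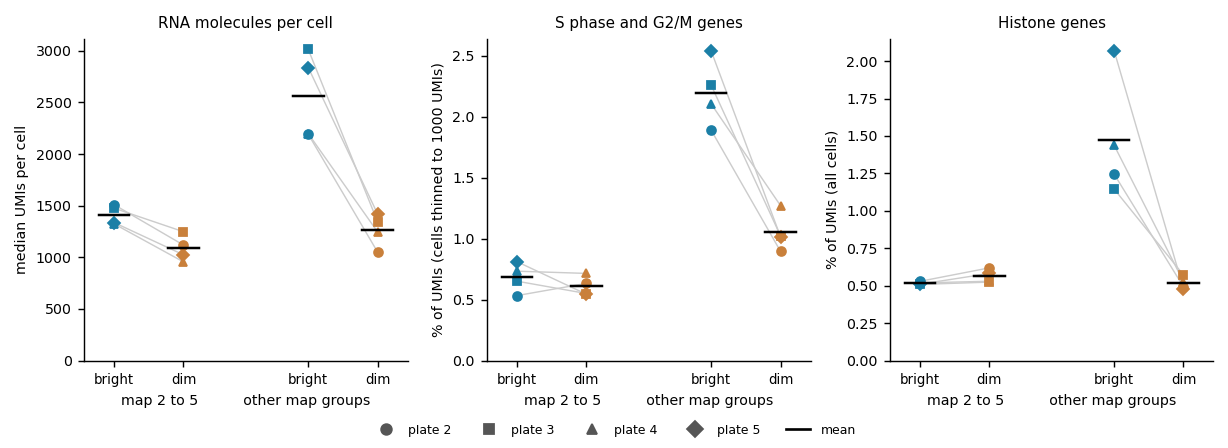
Median UMIs per cell (left), the percent of UMIs from S phase and G2/M genes (middle) and from linker and core histone genes (right), for bright and dim cells of map 2 to 5 and of the other map groups. Each symbol is 1 plate, grey lines join the sides of a plate and black bars are means; in map 2 to 5 the sides separate in UMIs per cell only, with a mean of 1412 in bright cells and 1087 in dim cells.

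Across the transcriptome, no gene passed the threshold. In edgeR's quasi-likelihood test on UMIs summed per plate and side, with all 3 fractions in 1 fit, 0 of 1703 tested genes (0.0%) had a Benjamini-Hochberg adjusted p under 0.05. The smallest adjusted p was 0.349. At an unadjusted p under 0.05 there were 111 genes (6.52%), of which 52 (3.05%) were higher and 59 (3.46%) lower in bright cells. DESeq2 called 0 genes too (0.0%), with 49 (2.88%) at an unadjusted p under 0.05. The median log2 fold change of all tested genes was -0.0015, with a median SE of 0.31. The 95% interval of the fold lay within a 2-fold change in either direction for 1177 genes (69.1%), so larger changes are bounded for most, but not all, of them. Bright against intermediate cells and intermediate against dim cells also gave 0 adjusted calls in edgeR (0.0% each). At an unadjusted p under 0.05 there were 84 genes (4.93%) for the first and 96 (5.64%) for the second. Values were higher in bright cells on every plate for 6.64% of the tested genes and lower on every plate for 6.64%. The genes below are therefore described by their values, and none is called.

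Hsp90ab1, the constitutive cytosolic HSP90 chaperone, ranked first by p. It had 7130.3, 6763, 7124 and 7172 CPM in bright cells of plates 2 to 5, against 6369, 5761, 5409 and 5903 CPM in dim cells. The 4 bright values were close to each other and all lay above the dim ones, as for 25 of 1703 genes (1.47%). The log2 fold change was 0.27 ± 0.07 (SE), with an edgeR adjusted p of 0.349. With 5 CFP quintiles in place of 3 fractions, the trend over quintiles gave an edgeR adjusted p of 0.0064, the 1 call among 1590 genes (0.0629%). The means by quintile, dimmest first, were 5974, 5693, 6069, 6792 and 7167 CPM, so the step came in the upper quintiles. Its call also appeared with the 30% brightest and dimmest cells (edgeR adjusted p = 0.0027, 1 gene or 0.041% called) and with no filter on low counts (edgeR adjusted p = 0.0022, 1 gene or 0.008% called). In the other map groups its log2 fold change was 0.05, and the difference of 0.23 ± 0.11 (SE) had an edgeR adjusted p of 0.441.

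Eef1g, a subunit of translation elongation factor 1, followed a like pattern. It had 2534, 2788, 3446 and 2771 CPM in bright cells, against 1469.7, 2530.0, 2300.5 and 2309.8 CPM in dim cells, with no overlap between the sides (log2 fold change 0.40 ± 0.12, edgeR adjusted p = 0.349). Nrgn, which encodes the calmodulin-binding protein neurogranin and is on the megakaryocyte list, had 1444, 1394, 1527 and 1365 CPM in bright cells, against 1018, 952, 591 and 1198 CPM in dim cells. Its sides did not overlap either, with a log2 fold change of 0.60 ± 0.17 (SE; edgeR adjusted p = 0.349). With the 10% brightest and dimmest cells it was called (log2 fold change 0.96, edgeR adjusted p = 0.0287, 2 genes or 0.295% called). Cd63, a tetraspanin of late endosomes, had 412, 624, 648 and 550.1 CPM in bright cells, against 188, 351, 155 and 513 CPM in dim cells. It was higher in bright cells on every plate, though plate 5 differed little (log2 fold change 0.85 ± 0.27).

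Bst2, the interferon-inducible membrane protein tetherin, averaged 407 ± 103 CPM in bright cells and 215 ± 66.8 CPM in dim cells (SD, n = 4 plates). Ssrp1, a subunit of the histone chaperone FACT, averaged 687 ± 76.5 CPM in bright cells and 428 ± 62.4 CPM in dim cells. The sides did not overlap for either gene. Anapc5, a subunit of the anaphase-promoting complex, and C1qbp, a protein of the mitochondrial matrix, had log2 fold changes of 0.70 and 0.69 and were higher in bright cells on every plate. Sox4, a transcription factor of early progenitors, had 383, 395, 370.1 and 387 CPM in bright cells, against 301, 250.5, 218 and 143 CPM in dim cells. Its bright values were almost equal, and all lay above the dim ones (log2 fold change 0.78 ± 0.32, edgeR adjusted p = 0.517).

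Of the 15 genes with the smallest p, 5 were lower in bright cells. Dap, a death-associated protein that acts as a brake on autophagy, had 354, 208, 278 and 122 CPM in bright cells, against 678, 426, 342 and 456 CPM in dim cells (log2 fold change -1.01 ± 0.30, edgeR adjusted p = 0.349). It was lower on every plate, but bright plate 2 overlapped dim plate 4. Psmb4, a proteasome subunit, had 678, 458, 624 and 550.1 CPM in bright cells, against 867, 852, 1088 and 769.9 CPM in dim cells, without overlap. Such separation with lower bright values held for 15 of 1703 genes (0.881%). Ddt, D-dopachrome tautomerase, had 88.4, 208, 162 and 163 CPM in bright cells, against 339, 326, 342 and 342 CPM in dim cells, again without overlap (log2 fold change -1.06 ± 0.38). Bgn, the matrix proteoglycan biglycan, averaged 191 ± 69.3 CPM in bright cells and 367 ± 60.5 CPM in dim cells. Laptm5, a lysosomal membrane protein of blood cells, averaged 2063 ± 267 CPM in bright cells and 2630.4 ± 736 CPM in dim cells, with overlap. It was the other gene called between the 10% brightest and dimmest cells (log2 fold change -0.72, edgeR adjusted p = 0.0287).

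**Figure D2:**
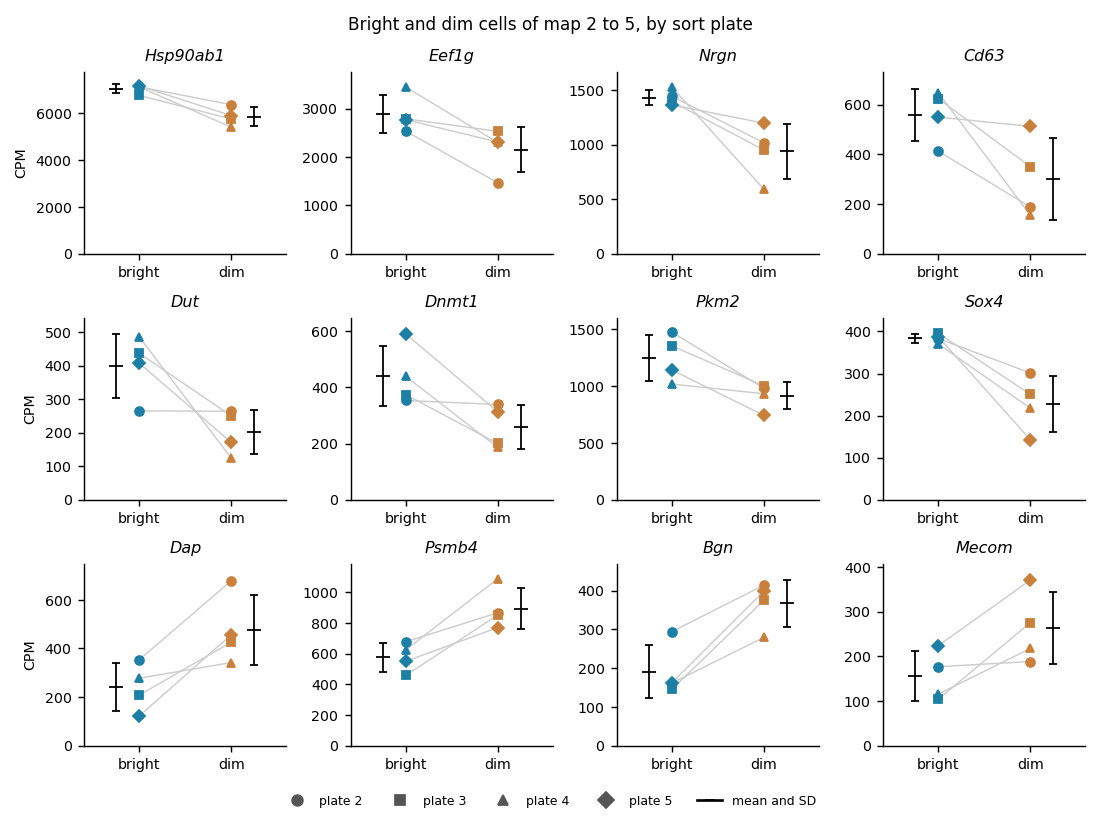
CPM of 12 genes in bright and dim cells of map 2 to 5, 1 symbol per plate with grey lines joining the sides, and the mean and SD of 4 plates beside them. The bright values of Hsp90ab1 (6763 to 7172 CPM) and Sox4 (370.1 to 395 CPM) sit close together above the dim ones, while those of Dap, Psmb4, Bgn and Mecom lie below on every plate; no gene passed the adjusted threshold.

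**Figure D3:**
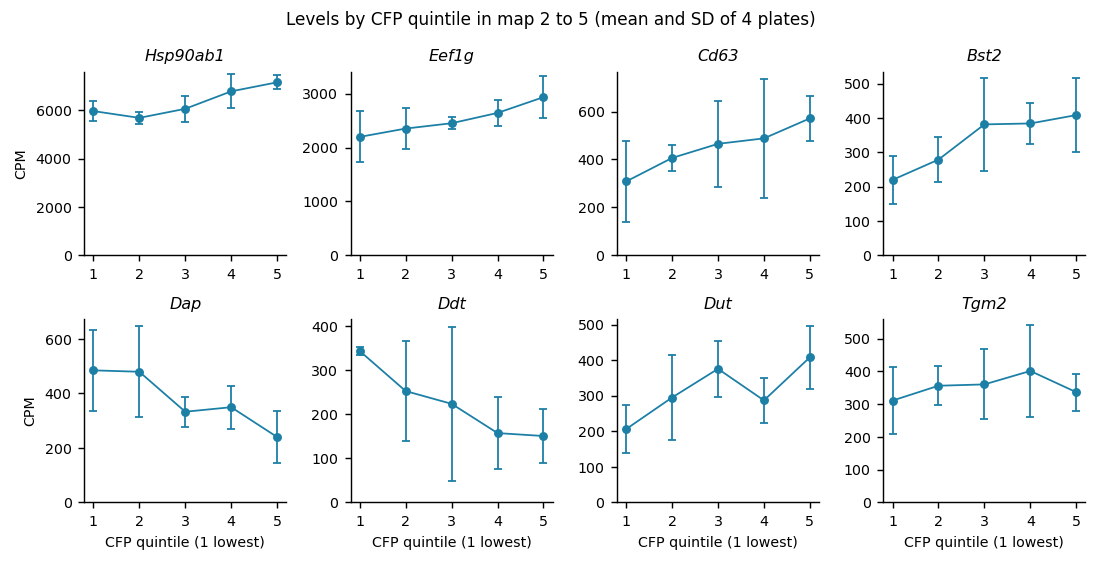
Mean CPM with SD of 4 plates in 5 CFP quintiles of map 2 to 5, dimmest at the left. Hsp90ab1 reached 7167 CPM in the brightest quintile, against 5974 CPM in the dimmest, while Tgm2 had 336 CPM in the brightest quintile and 311 CPM in the dimmest, a gap within its SD.

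Replication genes were the list whose members leaned most toward bright cells. Of the 50 S phase genes in the table, 14 passed the filter on low counts, and 13 of these had a positive log2 fold change, as did 49.8% of all tested genes. Their median was 0.40, against -0.0015 for all tested genes. None was called, and 6 were higher at an unadjusted p under 0.05, where 3.05% of all tested genes were. Dut, which clears dUTP before it enters DNA, had 265, 437, 486 and 407 CPM in bright cells, against 264, 250.5, 124 and 171 CPM in dim cells. The sides did not overlap, but plate 2 showed almost no difference (log2 fold change 1.00 ± 0.32, edgeR adjusted p = 0.473). Dnmt1, the maintenance DNA methyltransferase, had 354, 375, 439 and 591 CPM in bright cells, against 339, 200.4, 187 and 314 CPM in dim cells (log2 fold change 0.80 ± 0.30, edgeR adjusted p = 0.473). Its sides did not overlap, and plate 2 again differed least. Lig1, the replicative DNA ligase, had 236, 208, 370.1 and 529.7 CPM in bright cells, against 301, 50.1, 311 and 57 CPM in dim cells, with overlap. Mcm5 and Mcm6, subunits of the replicative helicase, and Nasp, a histone chaperone, had log2 fold changes of 0.78, 0.48 and 1.03.

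The summed S phase share made the same point about plates. It was 0.359%, 0.45%, 0.511% and 0.599% of UMIs in bright cells of plates 2 to 5, against 0.417%, 0.34%, 0.366% and 0.305% in dim cells. Bright cells were higher on 3 of 4 plates, and plate 2 was lower. Without plate 2, 8 of 15 tested S phase genes were higher at an unadjusted p under 0.05, where 3.49% of all tested genes were, and the median log2 fold change was 0.68. Without plate 5 the lean was weaker, with 3 of 12 higher at that level, where 3.27% of all tested genes were, and a median of 0.25. Without plate 3 it was 4 of 13 (55 of all 1596 tested genes), and without plate 4 it was 4 of 14 (49 of all 1871). Between cells matched on UMIs per cell only 5 S phase genes passed the filter, 0 of them at an unadjusted p under 0.05, with a median of 0.22 (of all tested genes there, 4.5% were higher and 4.21% lower at that level). UMIs per cell moved with this list, as given above, and its part in the result was not tested beyond that matching.

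Values of G2/M and histone genes were mostly negative. Of 57 G2/M genes 5 were tested, 4 of them negative (median log2 fold change -0.26), and none had an unadjusted p under 0.05. Of 20 linker and core histone genes 9 were tested, 6 negative (median -0.17), with 0 at an unadjusted p under 0.05. Histone genes took 0.53%, 0.509%, 0.519% and 0.51% of UMIs in bright cells, against 0.619%, 0.524%, 0.53% and 0.582% in dim cells. The bright share was slightly lower on 4 of 4 plates and overlapped the dim one. Tubulin and stathmin genes had 3 tested members, all positive (median 0.25), with 0 at an unadjusted p under 0.05. Their summed share was 0.226% to 0.279% of UMIs in bright cells and 0.192% to 0.235% in dim cells, higher in bright cells on 4 of 4 plates with overlap.

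Genes of growth and metabolism were mostly positive, with small values. G1 cyclin and growth genes took 0.87%, 0.822%, 0.889% and 0.956% of UMIs in bright cells of plates 2 to 5, against 0.803%, 0.786%, 0.743% and 0.791% in dim cells, without overlap. Among G1 cyclin and growth genes, 10 of 12 tested were positive (median 0.16) and 1 was higher at an unadjusted p under 0.05. This was Ccnd2, cyclin D2, whose table entry is shared with an alias named CYL2, with 943, 1457, 1549.7 and 1629.9 CPM in bright cells, against 678, 1002, 933 and 1511 CPM in dim cells. It was higher in bright cells on each plate, with overlap across plates (log2 fold change 0.43 ± 0.17, edgeR adjusted p = 0.473). Of 7 tested glycolysis genes, 3 were higher at an unadjusted p under 0.05 (median 0.13), where 3.05% of all tested genes were. Pkm2, pyruvate kinase, had 1473, 1352, 1018 and 1141 CPM in bright cells, against 979.8, 1002, 933 and 741 CPM in dim cells, without overlap (log2 fold change 0.44 ± 0.18). Gpi1, glucose phosphate isomerase, and Ldha, lactate dehydrogenase, had log2 fold changes of 0.46 and 0.36 and were higher in bright cells on every plate. Without plate 5, 1 of the 7 was still higher at an unadjusted p under 0.05, where 3.27% of all tested genes were, and the median was -0.06.

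At an unadjusted p under 0.05, 3.05% of all tested genes were higher in bright cells and 3.46% lower. Of 62 tested oxidative phosphorylation genes, 4 were higher and 2 lower at that level (median 0.10). Their summed share was 2.76 ± 0.130% of UMIs in bright cells and 2.67 ± 0.128% in dim cells (SD, n = 4 plates), higher on 4 of 4 plates with overlap. Atp5g3, a subunit of ATP synthase, averaged 1189.7 ± 70.3 CPM in bright cells and 844 ± 130.0 CPM in dim cells (SD, n = 4 plates), without overlap. Cox7a2l, an assembly factor of respiratory supercomplexes, averaged 1122 ± 119.7 CPM in bright cells and 1449 ± 108 CPM in dim cells, without overlap in the other direction. The 44 tested ribosomal protein genes had a median of 0.03, with 2 higher and 0 lower at an unadjusted p under 0.05. Heat shock genes had 1 of 21 at that level, Hsp90ab1, and a median of 0.15.

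HSC genes did not lean to a side. Of 22 tested, 11 were positive and 11 negative (median log2 fold change -0.0031). At an unadjusted p under 0.05, where 3.46% of all tested genes were lower, 1 was lower. This was Mecom, a transcription factor needed for HSC self-renewal, with 177, 104, 116 and 224 CPM in bright cells, against 188, 276, 218 and 371 CPM in dim cells. It was lower on every plate, with overlap (log2 fold change -0.80 ± 0.38, edgeR adjusted p = 0.685). The summed HSC share was 1.35 ± 0.253% of UMIs in bright cells and 1.36 ± 0.251% in dim cells (SD, n = 4 plates). The other 21 HSC genes fell below the filter, and 11 of these took a higher and 10 a lower share of UMIs in bright cells. Procr, the endothelial protein C receptor, had 46 UMIs in the 174 bright cells and 22 in the 174 dim cells. Slamf1, which encodes CD150, had 9 UMIs in bright cells and 1 in dim cells. Ly6a, which encodes Sca-1, had 10 UMIs in bright cells and 19 in dim cells, and Vldlr, a lipoprotein receptor gene, had 0 in bright cells and 5 in dim cells. These sums were not tested, and bright cells held 1.30-fold more UMIs per cell. The megakaryocyte list took 0.347 ± 0.0404% of UMIs in bright cells and 0.279 ± 0.0293% in dim cells (SD, n = 4 plates), higher on 4 of 4 plates. Nrgn alone gave 249 of the list's 879 UMIs in bright cells and 126 of its 547 in dim cells. Nrgn was the 1 tested member at an unadjusted p under 0.05, where 3.05% of all tested genes were higher. All 5 tested members of the list were positive (median 0.17). Of its 20 detected members below the filter, 13 took a higher and 6 a lower share of UMIs in bright cells. Vwf, von Willebrand factor of platelet-biased HSCs, was among these, with 35 UMIs in bright cells and 11 in dim cells. These sums were not tested either.

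None of the 21 quiescence and CDK inhibitor genes passed the filter. Cdkn1c, which encodes the CDK inhibitor p57, had 18 UMIs in bright cells, 44 in intermediate cells and 7 in dim cells. Cdkn1b, which encodes p27, had 5 UMIs in bright cells, 30 in intermediate cells and 6 in dim cells. Btg1, an antiproliferative gene, had 13 UMIs in bright cells, 30 in intermediate cells and 20 in dim cells. The summed list took 0.0573 ± 0.00929% of UMIs in bright cells and 0.066 ± 0.0146% in dim cells, a difference smaller than its spread between plates.

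The retinoid pathway showed no shift with the reporter that these counts could resolve. Of its 35 genes, 13 had 0 UMIs in the 869 cells, among them Cyp26a1, whose promoter element is printed above, and 5 passed the filter. Rarb had 7 UMIs, 1 in bright cells and 0 in dim cells, so for both genes with the DR5 motif the depth allows no comparison. The 5 tested genes had a median log2 fold change of -0.08, and 0 had an unadjusted p under 0.05. Tgm2, transglutaminase, a classical retinoic acid target, had 383, 333, 254 and 367 CPM in bright cells, against 377, 401, 187 and 257 CPM in dim cells. The sides overlapped, and the 95% interval of the log2 fold change, -0.47 to 0.72, leaves room for less than a 2-fold change either way. Adh5, an alcohol dehydrogenase, and the corepressor gene Ncor1 had log2 fold changes of -0.27 and -0.08, each with an SE near or above its size. Of the receptors below the filter, Rara had 6 UMIs in bright cells and 7 in dim cells, Rxrb had 21 in bright cells and 19 in dim cells, Rxra had 9 in bright cells and 3 in dim cells, and Rarg had 5 in bright cells and 1 in dim cells. Of the 17 detected genes below the filter, 10 took a higher and 6 a lower share of UMIs in bright cells, and these sums were not tested. Aldh1a1, a retinaldehyde dehydrogenase, had 19 UMIs in bright cells and 6 in dim cells. The summed list took 0.168 ± 0.0258% of UMIs in bright cells and 0.17 ± 0.0172% in dim cells (SD, n = 4 plates).

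The same contrast was then set against that in the 561 cells of all other map groups, with 113 bright and 113 dim cells, in 1 edgeR fit with an interaction term over 2232 genes. The difference was past the adjusted threshold for 31 genes (1.39%), 14 (0.627%) with a lower and 17 (0.762%) with a higher fold in map 2 to 5. In that fit 0 genes were called in map 2 to 5 (0.0%, with 133 or 5.96% at an unadjusted p under 0.05), and 87 (3.9%) in the other groups. If the map number was made from the same UMIs, cycling genes would vary less inside map 2 to 5 by its construction, and this part in the result cannot be told apart. Of the bright cells in the other groups 94.7% belonged to map 8 to 10, against 59.3% of the dim cells, so the sides there also differ in map group. With the sides cut within each map group instead, 11 of the 31 differences were still called, 8 of them histone genes. Of the 31, 9 were called in all 4 fits that left out 1 plate.

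Of 14 tested histone genes 9 had a called lower fold in map 2 to 5, and 6 of the 9 were called in all 4 fits that left out 1 plate. Hist1h1b, a linker histone gene, had 83, 155, 261 and 191 CPM in bright cells of map 2 to 5, against 107, 233, 287 and 133 CPM in dim cells. In the other groups it had 2004, 1788, 2307 and 4919.9 CPM in bright cells, against 113, 307, 507 and 73.9 CPM in dim cells. The sides overlapped in map 2 to 5 and were far apart in the other groups (difference of log2 folds -3.63 ± 0.53 SE, edgeR adjusted p = 3.94e-07). The core histone gene Hist1h2ae had log2 folds of -0.49 in map 2 to 5 and 4.13 in the other groups (difference -4.62 ± 0.60, edgeR adjusted p = 1.01e-08). Top2a, the topoisomerase of dividing cells, had log2 folds of -0.46 in map 2 to 5 and 2.16 in the other groups (difference -2.62 ± 0.47, edgeR adjusted p = 7.51e-05). The tubulin genes Tubb5 and Tuba1b had differences of -1.14 and -0.81, and of -0.72 and -0.56 with no call when the sides were cut within map groups (edgeR adjusted p = 0.142 and 0.231). Tuba1b also lost its call without plate 2 or 3 and against map 8 to 10. Replication genes had no called difference. Of 27 tested S phase genes 0 had a called difference, with a median difference of -0.10. At an unadjusted p under 0.05, 5 were lower in map 2 to 5 (Tk1, Usp1, Clspn, Pcna and Tyms, with differences from -3.57 to -0.94) and 0 higher, where 4.39% of all tested genes were lower. Dut had a log2 fold of 1.01 in map 2 to 5 and 1.04 in the other groups.

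Among the 17 genes with a higher fold in map 2 to 5, Ccnd2 changed sign. It had a log2 fold of 0.45 in map 2 to 5 and -0.80 in the other groups, where bright cells had 522, 766, 469.9 and 552 CPM, against 902, 1273, 941 and 924 CPM in dim cells (difference 1.25 ± 0.26, edgeR adjusted p = 0.0013). Sox4 and Cd63 also had opposite signs, with differences of 1.75 ± 0.48 and 1.499 ± 0.41 (edgeR adjusted p = 0.037 and 0.0338), and neither was called when the sides were cut within map groups or set against map 8 to 10. Sox4 also lost the call without plate 2, 3 or 5 and Cd63 without plate 2, 3 or 4, with edgeR adjusted p up to 0.345 and 0.36. Ifitm1, an interferon-induced membrane protein gene high in HSCs, had log2 folds of -0.16 in map 2 to 5 and -1.19 in the other groups (difference 1.03 ± 0.19, edgeR adjusted p = 0.000134). Cut within map groups its difference was 0.63 with no call (edgeR adjusted p = 0.225), and without plate 5 the adjusted p was 0.0523. Malat1, a nuclear long noncoding RNA, had log2 folds of -0.24 in map 2 to 5 and -1.31 in the other groups (difference 1.07 ± 0.25), and its call was lost cut within map groups and without plate 3. Of 46 tested ribosomal protein genes 5 had a called higher fold in map 2 to 5, with median log2 folds of 0.04 in map 2 to 5 and -0.19 in the other groups. None of the 5 was called with sides cut within map groups (edgeR adjusted p from 0.448 to 0.75), where Rps18 had a difference of 0.19 in place of 0.41. Hbb-b1, Beta-s and Hba-a2, globin genes, had differences of 2.72, 2.78 and 3.19. On the dim side of the other groups, 1 cell of map 1 held 504 of that side's 587 globin UMIs. Without map 1, Hbb-b1, Beta-s and Hba-a2 had differences of 1.01, -0.07 and -0.36, and none of the 3 was called.

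**Figure D4:**
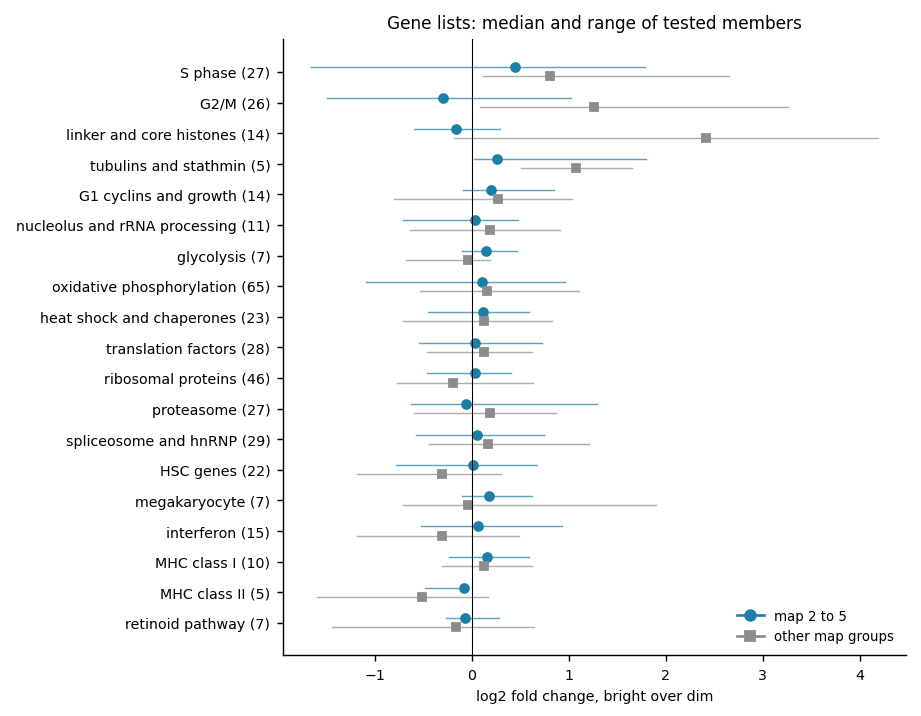
Median (symbol) and range (line) of the log2 fold change of tested members of 19 gene lists, with the number tested in brackets, for map 2 to 5 and for the other map groups in the joint fit. Histone genes had medians of -0.16 in map 2 to 5 and 2.41 in the other groups, G2/M genes had medians of -0.30 in map 2 to 5 and 1.26 in the other groups, and S phase genes 0.44 in map 2 to 5 and 0.81 in the other groups.

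**Figure D5:**
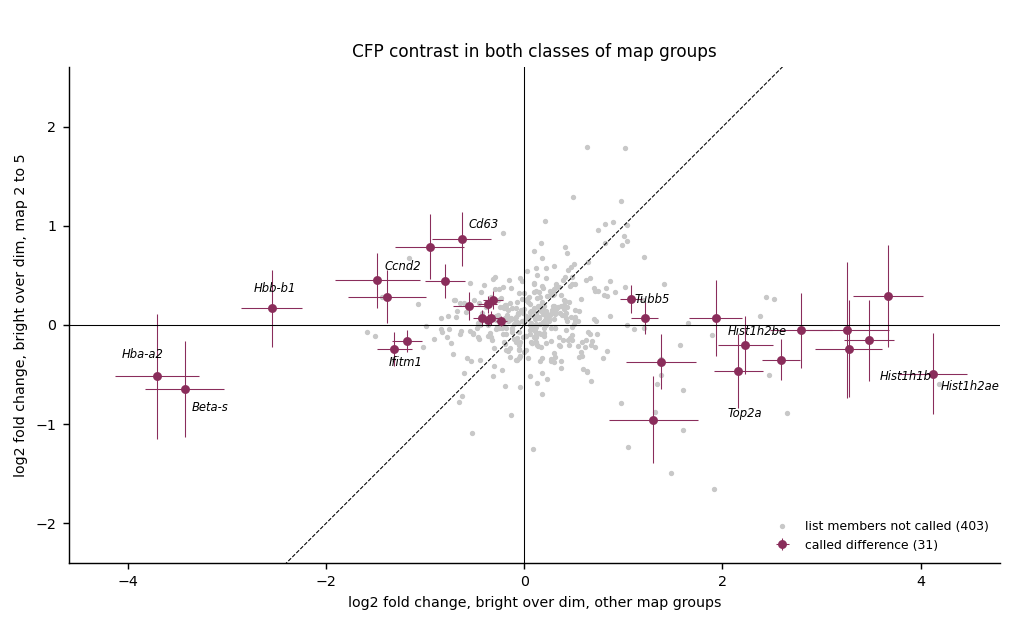
Log2 fold change of bright over dim cells in map 2 to 5 (vertical) and in the other map groups (horizontal); the 31 genes with a called difference have bars of 1 SE, grey points are other list members and the dashed line marks equal folds. Histone genes lie far to the right near 0 on the vertical axis, and the globin genes at the far left rest largely on 1 map 1 cell.

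Other channels of the sort record moved with CFP inside map 2 to 5. The channels are named by dye, without an antibody, and values are given as mean ranks from 0 to 100 within a plate. APC averaged rank 59.8 ± 2.98 in bright cells and 39.2 ± 4.22 in dim cells (SD, n = 4 plates), a difference of 20.5 with all 4 plates between 15.8 and 27.3. Forward scatter area, a measure of cell size, averaged rank 56.4 ± 3.22 in bright cells and 42.4 ± 5.39 in dim cells. Forward scatter width (13.3), forward scatter height (12.3), side scatter width (10.3), DAPI (9.48), APC-Alexa Fluor 750 (8.34) and PE-Cy7 (7.18) also ranked higher in bright cells on 4 of 4 plates. For each of these 8 channels the exact sign-flip permutation test gave p = 0.12, the smallest possible (0.203 after Benjamini-Hochberg over 13 channels). Alexa Fluor 700, PE, PE-Cy5, side scatter area and side scatter height had mixed signs over plates. Bright cells were thus higher in forward scatter, UMIs per cell and APC signal on 4 of 4 plates. The part of spectral overlap between CFP and the other dyes was not tested.

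The sides also differed somewhat in make-up. Map 4 gave 33.5 ± 12.2% of bright cells and 44.0 ± 9.17% of dim cells (SD, n = 4 plates), lower on 4 of 4 plates (exact permutation p = 0.12, 0.5 after Benjamini-Hochberg over 4 groups). Map 5 gave 29.96 ± 5.63% of bright cells and 24.96 ± 4.17% of dim cells, higher on 3 of 4 plates. With the sides cut inside each plate and map group, so that each group gave equal shares, the UMI step stayed at a log2 ratio of 0.40 ± 0.11 and the edgeR fit again called 0 of 1700 genes (0.0%). In that fit the S phase median was 0.34, with 3 of 13 tested genes higher at an unadjusted p under 0.05, where 3.06% of all tested genes were.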

How the data were processed

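Single HSCs were index sorted into 384-well plates holding barcoded poly(T) primers, and pooled cDNA was amplified in vitro and sequenced, per the labels' protocols. The authors deposited UMI counts per gene and well, with 27297 entries and 1536 wells, and a sort record of 1430 wells. The submitters' processing notes name mm9 and mm10, and the pipeline from reads to counts was not given in the sources used here. In the deposited record the CFP, APC and Alexa Fluor channels are log10 values of a channel number, per the values, and forward and side scatter are linear intensities. PE, PE-Cy5, PE-Cy7 and DAPI hold spreadsheet errors in 35, 14, 65 and 51 of the 869 wells, which were left out for that channel. All channels were used as ranks within a plate.

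Every recorded cell had at least 511 UMIs, so no cell was filtered, except that shares thinned to 1000 UMIs leave out shallower cells. No doublet caller was run, since the wells held sorted single cells. UMIs were summed per plate and side with Python 3.11.15 and tested with edgeR 4.0.16 in R 4.3.3 (genes kept by filterByExpr, TMM scaling, plate as a block in the quasi-likelihood fit, Benjamini-Hochberg threshold 0.05). Fold changes are log2 of bright over dim with edgeR's SE, and intervals are 95%. DESeq2 1.42.0 was an alternative. Plates pair the sides because each side was cut inside a plate. The 95% intervals come from the edgeR fit and carry spread between plate sums as well as counting error. UMI sums over a side are given without an interval. Shares and medians were compared over plates by exact permutation of the signs of the plate differences, two-sided. The analysis design took sort plates as replicates, and each gene named in the text was among the 15 smallest p, a called difference or a member of a list. Procr, Vwf, Slamf1, Ly6a, Vldlr, Cdkn1c, Cdkn1b, Btg1, Aldh1a1, Rara, Rxrb, Rxra and Rarg, below the filter, were chosen after their values were seen. The cells and gene lists were chosen with earlier results of these data known. Some single-gene results are not reported here. Bulk RNA and bisulphite samples were not used here.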

Additional observations from a re-analysis of the deposited data

Results flagged for a closer look

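In 3 of 44 groups of 4 plate values 1 plate lay far from the others, by a limit that chance alone passes in about 1 in 20 groups. Hsp90ab1 in bright cells had 6763 CPM on plate 3, against 7124 to 7172 CPM on the other plates. Bgn in bright cells had 295 CPM on plate 2, against 146 to 163 CPM on the others, and Rpl26 in bright cells had 766 CPM on plate 2, against 6784 to 7355 CPM. Rpl26 is among the 67 genes over 4-fold lower on plate 2.

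The contrast of bright over dim differed between map 2 to 5 and the other map groups for 31 genes by edgeR's interaction test. The values here are the log2 fold in map 2 to 5 minus that in the other groups. Among histone genes it was -2.94 for Hist1h2be (an entry shared with Hist1h1e), -4.62 for Hist1h2ae, -3.63 for Hist1h1b, -2.44 for Hist1h1c, -2.85 for Hist1h4d, -3.51 for Hist1h1d, -3.38 for Hist1h1a, -1.75 for H1f0 (an entry shared with Icam1) and -1.86 for H2afx. Among other genes with a lower fold in map 2 to 5 it was -2.62 for Top2a, -1.14 for Tubb5, -0.81 for Tuba1b, -3.31 for the kinetochore gene Spc24 and -2.26 for the RNA helicase gene Ddx27. Among genes with a higher fold in map 2 to 5 it was 1.03 for Ifitm1, 1.25 for Ccnd2, 0.58 for Eef2, 1.07 for Malat1, 0.50 for the ferritin gene Ftl1, 1.93 for Itsn1, 1.499 for Cd63, 1.75 for Sox4 and 1.67 for AK079675. Ribosomal protein genes had differences of 0.41 for Rps18, 0.56 for Rpl26, 0.41 for Rps21, 0.27 for Rplp1 and 0.75 for Rpl30. The globin genes Hbb-b1 at 2.72, Beta-s at 2.78 and Hba-a2 at 3.19 rest largely on 1 map 1 cell. Without map 1, Hbb-b1 still had a difference of 1.01, with no call. H2afx and Ddx27 kept the call in 0 of the 4 fits that left out 1 plate. H1f0, Itsn1, Cd63, Sox4, Spc24, Rplp1, Rpl30 and AK079675 kept it in 1 of the 4.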

How the results depend on the processing

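The bright against dim comparison in map 2 to 5 called 0 genes in the main fit and 0 with DESeq2 size factors, DESeq2, no replicate block, each plate left out, 2 sides only, sides cut within map groups, map 4 alone, cells with at least 1000 UMIs, cells matched on UMIs, without the 20% highest in cycling genes, CFP corrected for forward scatter, ties reversed, or map 1 to 7 (the last 2 chosen after seeing the data). It called 1 with no filter, 2 with 10% sides, 1 with 30% sides and 1 over quintiles. The 31 differences between classes became 1 with no replicate block, between 14 and 27 without each plate in turn, 17 against map 8 to 10 alone (16 of them among the 31), 26 without map 1 and 11 with sides cut within map groups, both of these sets wholly among the 31; the last 3 settings were chosen after seeing the data. Of 418 gene values in other settings for bright against dim, 10 changed sign and 5 became called. Of 248 class differences, 118 lost the call and 4 changed sign, and of 169 list medians 15 moved by more than their spread over plates. The cause was not tested. Ifitm1 became 0.0025 without the most cycling cells. Adh5 became 0.14 with 30% sides and 0.015 cut within map groups. Without each plate in turn, Ncor1 ran between -0.33 and 0.15, Tgm2 between -0.011 and 0.33, and the class differences of Beta-s between -0.18 and 3.34 and of Hba-a2 between -0.044 and 3.96. Ncor1 was 0.011 cut within map groups, 0.069 corrected for forward scatter and 0.12 in map 1 to 7. Tgm2 became -0.00224 from 1000 UMIs. The class differences of Beta-s and Hba-a2 became -0.065 and -0.36 without map 1. Depth limits genes under about 161 CPM, the lowest tested mean.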

Other observations

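No gene of the groups not described above was called by edgeR in map 2 to 5. At an unadjusted p under 0.05, 3.05% of all tested genes were higher in bright cells and 3.46% lower. The sides did not overlap for 1.47% of all tested genes with bright cells higher and 0.881% with bright cells lower. Of 28 tested spliceosome and hnRNP genes, bright cells were higher in 2 and lower in 0 at an unadjusted p under 0.05 (median log2 fold change 0.05). Among them was Hnrnpa2b1, an RNA-binding protein of splicing, with 1502 ± 112 CPM in bright cells and 1153 ± 115 CPM in dim cells, without overlap (SD, n = 4 plates). Of 23 tested proteasome genes, 1 was higher and 1 lower at that level (median 0.07). Of 14 tested redox genes, 1 was higher and 1 lower, the lower one being Txn2, mitochondrial thioredoxin, with 479.8 ± 40.4 CPM in bright cells and 742 ± 146 CPM in dim cells and no overlap. Of 28 tested translation factor genes, 3 were higher and 1 lower (median 0.03), and Eef2, the ribosomal translocation factor, averaged 5351 ± 185 CPM in bright cells and 4649 ± 261 CPM in dim cells without overlap.

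All 4 tested MHC class II genes were negative (median -0.09), with 0 at an unadjusted p under 0.05. Of 14 tested interferon genes 1, Bst2, was higher at that level (median 0.05), and of 8 tested erythroid genes 0 were (median 0.01). Nucleolar genes had 9 tested members and a median of 0.31, with 0 at that level. With cells matched on UMIs per cell, bright cells were higher in 13 of 43 tested ribosomal protein genes and lower in 1 at that unadjusted level (median 0.14), where 47 of 1045 tested genes were higher and 44 lower. Both sides of the matched set had close UMI medians, 1192 ± 96.3 in bright cells and 1167 ± 150.0 in dim cells (SD over the 4 plates). This pattern was seen after the data and was not tested further.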
